A study of Mus musculus with 8 samples.

Results

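The 4 mouse liver RNA-seq libraries from day 2 after extended hepatectomy, in which most liver lobes are cut away, were chosen by their level of Mki67 and set in 2 classes. Mki67 is the gene of a nuclear protein that cycling cells make and resting cells lack. Day 2 replicates 3 and 4 had Mki67 above 5 FPKM and are called the Mki67-high libraries. Day 2 replicates 1 and 2 had Mki67 below 1 FPKM and are called the Mki67-low libraries. FPKM is a count of sequenced fragments scaled by transcript length and library depth. The division therefore covers 4 of the 8 libraries of the study, 2 in each class, and its members were selected on measured values. Differences between the classes are described here with the value of each library and without a test. The other 4 libraries, 2 from normal control liver and 2 from liver 14 days after the operation, serve for reference.

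All 8 libraries came from liver of wild type C57BL/6 mice. The controls were normal mice aged 10 weeks. The design text gives EMC treatment (the treated control) or eLO treatment to the mice of day 2, and eLO treatment to those of day 14, and the study's title concerns encapsulated human hepatocyte organoids. No label says which day 2 library had which treatment, so treatment and Mki67 class could not be compared. The title of day 2 replicate 1 reads d1 while its age label reads day 2, and that of replicate 3 holds the letters TVR, with no explanation. Each day 2 title also opens with a number, lower in both Mki67-low than in both Mki67-high libraries. What it counts is not stated, so it cannot be told apart from the Mki67 class. The title of day 14 replicate 1 opens with the same number as that of day 2 replicate 1. No label says whether the libraries within a group are separate mice. All p-values below therefore measure the spread between these libraries, which may be technical.

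The adult liver is mostly made of resting hepatocytes. After partial hepatectomy the remaining hepatocytes leave the resting state, pass a growth factor checkpoint marked by cyclin D1, copy their DNA in S phase and then divide in G2/M phase. Genes of the S and G2/M phases are held down in resting cells by repressor complexes that bind E2F sites and the CHR element in their promoters, and are switched on when those complexes are replaced by activators. Mki67, Ube2c, which helps the anaphase-promoting complex to degrade mitotic proteins, and Ccnd1, cyclin D1, mark cells in this program.

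Mki67 (chr7:135689784-135716361 of GRCm38) stood at 0.346 and 0.511 FPKM in control replicates 1 and 2, at 0.0155 and 0.0483 in the Mki67-low libraries, at 10.5 and 14.9 in the Mki67-high libraries and at 0.244 and 0.346 at day 14. Pairs of values are given in replicate order throughout, and where a pair stands against another with no group named, the Mki67-low libraries come first. The value just inside the upper class was thus 10.5 FPKM in replicate 3, and the nearest value outside it was 0.0483 FPKM in replicate 2, with no library between. Ube2c (chr2:164769898-164778822) stood at 1.31 and 1.52 FPKM in control liver, 1.26 and 0.516 in the Mki67-low and 168 and 247 in the Mki67-high libraries and 2.66 and 4.04 at day 14. Ccnd1 (chr7:144929931-144939925) stood at 4.25 and 6.15 FPKM in control liver, 13.8 and 3.36 in the Mki67-low and 48.2 and 51.9 in the Mki67-high libraries, and at 6.86 and 9.24 at day 14. Both genes followed Mki67 in that replicates 3 and 4 lay above every other library. Ccnd1 also separated the Mki67-low libraries, replicate 1 lying above and replicate 2 below both controls.

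Total FPKM was 762557 and 1133922 in the Mki67-low and 818159 and 686332 in the Mki67-high libraries, with 10796 to 11197 genes per library at 1 FPKM or more. Read counts were not used here, so absolute depth is unknown. A relative depth scale read from the lowest FPKM values, with control replicate 1 at 1.00, gave 0.96, 0.84, 1.02 and 1.14 for day 2 replicates 1 to 4. In 11379 genes, at least 2 of the 4 day 2 libraries reached 1 FPKM, and these genes were compared. Pearson's r on log2(FPKM + 1) was 0.958 within the Mki67-low and 0.966 within the Mki67-high class. It was 0.877 to 0.918 between classes and 0.990 between the controls, where genes are not independent replicates. Replicates 1 and 2 were at least 1 log2 unit apart in 1073 genes (9.43%) and replicates 3 and 4 in 640 (5.62%), against 123 (1.08%) for the controls. Genes of high GC content stood higher against control than genes of low GC content, by 0.94 and 0.98 log2 units in the Mki67-low and 0.74 and 0.75 in the Mki67-high libraries, so this measure moved with the class.

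For each of the 11379 genes the gap between the classes was taken on log2(FPKM + 1), as the lowest value of the upper class minus the highest value of the lower one. This scale understates differences of genes with low levels. A gene was counted as separated when the gap was at least 1 log2 unit, which is 2-fold on that scale. In all 504 genes (4.43%) were higher and 238 (2.09%) lower in the Mki67-high libraries. These are the background shares for every count of separated list members below. Without a minimum gap 3079 genes (27.1%) lay higher and 3196 (28.1%) lower in both Mki67-high libraries, so the 2 directions were nearly balanced until a gap was asked for. Of the 504 genes 211 were under 1 FPKM in both Mki67-low libraries and entered the set through the Mki67-high libraries alone, and of the 238 genes 47 entered through the Mki67-low libraries alone. Once each library was corrected for transcript length and GC content, 493 and 224 genes were separated, of which 460 and 201 were among the original sets. The part of GC content in single genes was not tested. Without day 2 replicate 1 the counts were 1020 and 756, and without replicate 3 or 4 the genes lower numbered 418 and 500.

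The normal control libraries show from which side the classes parted. Both Mki67-high libraries were at least 1 log2 unit above both controls in 929 genes (8.16%) and below them in 533 (4.68%), and both Mki67-low libraries in 1021 (8.97%) and 844 (7.42%). Of the 504 genes higher in the Mki67-high libraries, 286 were above control there and near control in the Mki67-low libraries. Near means that the libraries of a class were not both 1 log2 unit or more above, or below, both controls. A further 105 were near control in the Mki67-high libraries and below it in the Mki67-low libraries, and 35 were below control in both. The separated G2/M genes described below were all in the former set, and the 9 separated cytochromes P450 in the latter pair of sets. Of the 238 genes lower in the Mki67-high libraries, 135 were near control there and above control in the Mki67-low libraries, 60 were near control in both and 24 above control in both. Only 18 were below control in the Mki67-high libraries and near it in the Mki67-low ones.

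**Figure D1:**
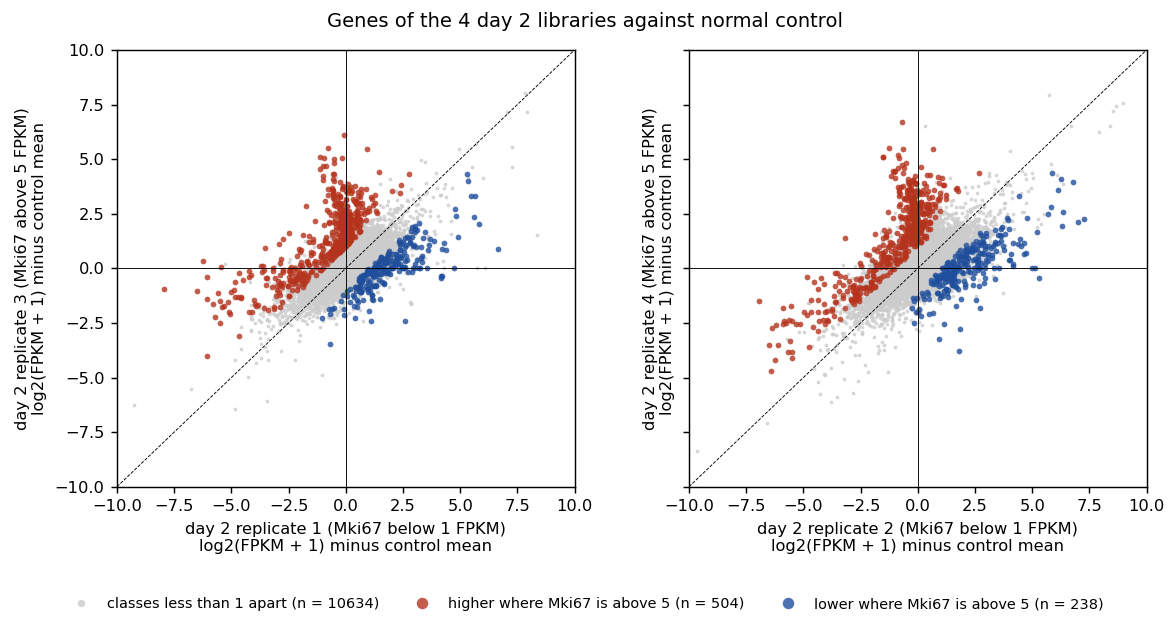
Each point is a gene, placed by its log2(FPKM + 1) minus the control mean in a Mki67-low library (horizontal axis; replicate 1 left, replicate 2 right) and in a Mki67-high library (vertical axis; replicate 3 left, replicate 4 right). Red points are the 504 genes at least 1 log2 unit higher and blue points the 238 genes at least 1 log2 unit lower in the Mki67-high libraries, with one red arm rising at the control level of the Mki67-low library and another running to the left, and the blue points to the right.

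The promoters of the cell division genes are shown first because their shared letters can be read beside the expression values. Windows from 250 bases before to 50 after the annotated start were taken from RefSeq on GRCm38.p6, on the strand of the gene. Capitals mark matches on either strand to the CCAAT box, to the CHR element, searched as TTTGAA and as the related form TTCGAA, and to E2F sites. The E2F letters searched were TTTCCCGC, then TTTGGCGC and then TTTCGCGC. The Ube2c window lies at chr2:164769679-164769978 on the plus strand, the Cdk1 window at chr10:69352863-69353162 on the minus strand and the Cdc20 window at chr4:118437294-118437593 on the minus strand. These are the G2/M genes with the largest gaps among those whose window holds both a CCAAT box and a CHR match.
Ube2c: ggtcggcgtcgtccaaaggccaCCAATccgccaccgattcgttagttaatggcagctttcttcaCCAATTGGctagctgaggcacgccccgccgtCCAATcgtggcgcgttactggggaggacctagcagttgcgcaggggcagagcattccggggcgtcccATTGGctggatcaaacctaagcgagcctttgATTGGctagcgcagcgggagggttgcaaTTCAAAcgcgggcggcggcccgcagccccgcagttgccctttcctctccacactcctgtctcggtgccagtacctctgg
Cdk1: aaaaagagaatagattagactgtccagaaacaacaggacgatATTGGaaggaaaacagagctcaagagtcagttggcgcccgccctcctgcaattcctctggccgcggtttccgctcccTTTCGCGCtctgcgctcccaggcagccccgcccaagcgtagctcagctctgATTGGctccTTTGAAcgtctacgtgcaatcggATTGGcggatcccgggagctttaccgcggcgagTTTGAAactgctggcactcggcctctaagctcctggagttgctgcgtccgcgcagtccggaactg
Cdc20: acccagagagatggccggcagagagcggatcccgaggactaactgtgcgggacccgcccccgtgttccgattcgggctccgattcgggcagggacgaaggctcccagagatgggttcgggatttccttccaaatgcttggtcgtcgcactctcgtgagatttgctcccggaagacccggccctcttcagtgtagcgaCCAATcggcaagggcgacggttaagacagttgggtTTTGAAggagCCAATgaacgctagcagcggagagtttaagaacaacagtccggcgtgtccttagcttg
In the Ube2c window 6 CCAAT matches precede a single CHR match 29 bases before the start, and 2 of them overlap as the palindrome written CCAATTGG. The Cdk1 window holds 2 CHR matches, 71 and 15 bases before the start, and an E2F match 131 bases before it. The Cdc20 window holds a CHR match 18 bases before the start between 2 CCAAT boxes.

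The windows of the replication helicase genes Mcm6 (chr1:128359656-128359955, minus strand) and Mcm5 (chr8:75109259-75109558, plus strand), are those of the S phase list with the largest gaps and an E2F match.
Mcm6: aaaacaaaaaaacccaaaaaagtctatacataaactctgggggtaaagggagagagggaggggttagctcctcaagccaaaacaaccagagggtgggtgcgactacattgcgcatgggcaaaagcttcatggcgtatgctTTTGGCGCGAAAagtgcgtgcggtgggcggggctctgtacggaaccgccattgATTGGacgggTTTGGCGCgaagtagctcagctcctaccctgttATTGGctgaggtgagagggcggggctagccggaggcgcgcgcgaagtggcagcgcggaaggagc
Mcm5: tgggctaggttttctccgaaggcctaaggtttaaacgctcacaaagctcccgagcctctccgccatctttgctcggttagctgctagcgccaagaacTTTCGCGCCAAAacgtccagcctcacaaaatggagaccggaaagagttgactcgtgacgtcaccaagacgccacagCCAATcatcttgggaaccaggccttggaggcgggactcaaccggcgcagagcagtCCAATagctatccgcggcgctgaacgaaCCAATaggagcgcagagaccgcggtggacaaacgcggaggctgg
Each holds a pair of E2F matches on opposite strands that overlap (TTTGGCGCGAAA in Mcm6 and TTTCGCGCCAAA in Mcm5). Mcm6 has a further E2F match 47 bases before the start, and neither holds a CHR match.

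Of 32851 promoter windows in the RefSeq table, 37.4% held a CCAAT box, 19.2% a CHR match and 1.84% an E2F match. The 32 listed G2/M genes matched 27 windows of 26 genes, of which 24 (88.9%) held a CCAAT box, 20 (74.1%) a CHR match, all 20 together with a CCAAT box, and 1 (3.70%) an E2F match. The 38 listed S phase genes matched 35 windows of 30 genes, of which 20 (57.1%) held a CCAAT box, 6 (17.1%) a CHR match and 12 (34.3%) an E2F match. The centres of the CHR matches in G2/M windows lay at a median of 12 bases before the start and those of the CCAAT boxes at 62.5 bases before it. Among all 504 genes higher in the Mki67-high libraries, 374 matched 437 windows, of which 54.5% held a CCAAT box, 32.3% a CHR match and 8.47% an E2F match. For the 286 that were above control in the Mki67-high and near it in the Mki67-low libraries the shares were 60.0%, 40.4% and 12.7% of 245 windows. For the 141 that were below control in the Mki67-low libraries the shares were 49.6%, 23.3% and 2.26% of 133 windows. For the 238 genes lower in the Mki67-high libraries they were 35.8%, 14.4% and 2.33% of 215 windows, against 37.9%, 14.0% and 3.50% of the 10897 windows of genes that passed the filter. Lists of other functions also varied. CCAAT and CHR matches stood in 54.5% and 31.8% of 22 windows of cytochromes P450 and in 57.1% and 21.4% of 14 windows of pericentral genes. They stood in 38.9% and 16.7% of 18 windows of lipid droplet genes and in 10.0% and 5.0% of 20 windows of acute phase genes. Matches are runs of letters and not measured binding, and no chance test was made.

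**Figure D2:**
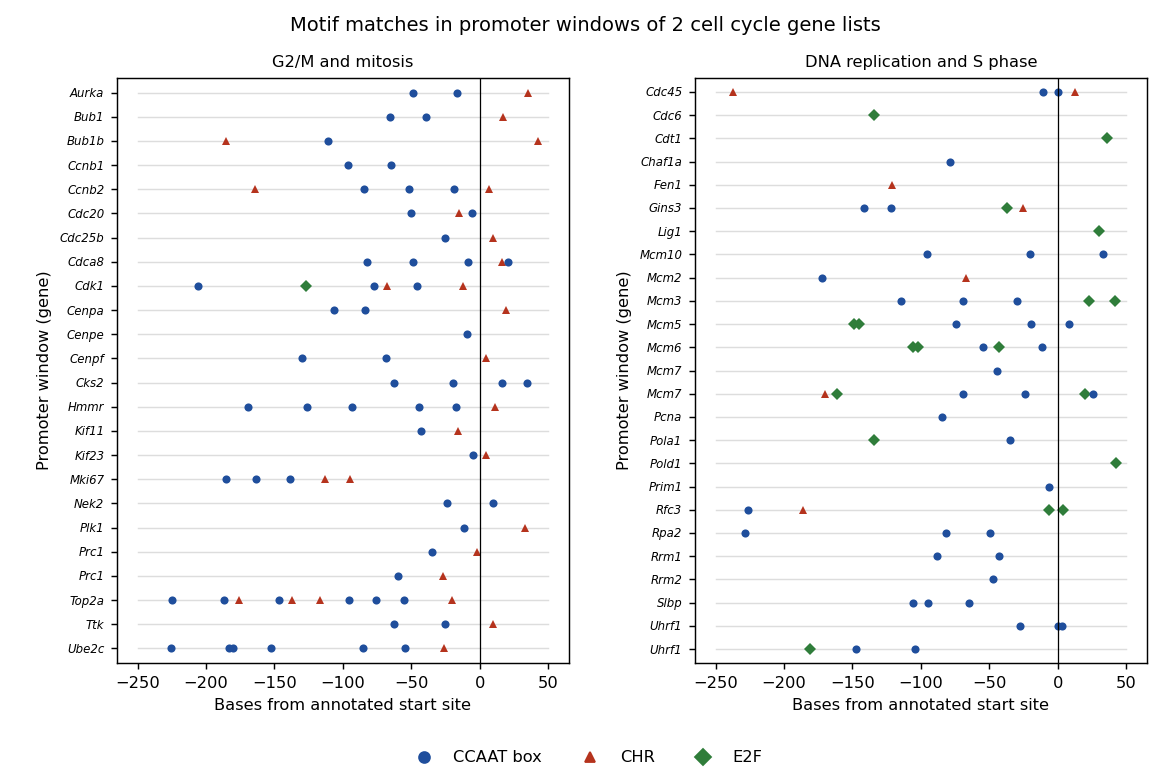
Positions of CCAAT (blue circles), CHR (red triangles) and E2F (green diamonds) matches in bases from the annotated start for the windows of the G2/M list (left) and the S phase list (right) that hold any match; each row is a window, so a gene with 2 windows has 2 rows. CHR matches occur in 20 of 27 G2/M windows and E2F matches in 12 of 35 S phase windows.

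The list of G2 and mitosis genes holds Mki67, which set the classes, so its counts are a description of what the division picked. Of 32 listed genes, 31 were higher in the Mki67-high libraries by at least 1 log2 unit and above control there, and none of the 32 was above or below control in the Mki67-low libraries. The median of the list against the control mean was -0.52 and -0.45 in the Mki67-low and 3.45 and 3.61 in the Mki67-high libraries, against 0.08, 0.06, 0.09 and 0.06 over all genes that passed. Of the 32 genes 26 were under 1 FPKM in both Mki67-low libraries and passed the filter through the Mki67-high libraries alone, Mki67 among them. Of the 6 measured in both classes 5 were higher. Pttg1, securin, which holds sister chromatids together until anaphase, was the single member that overlapped, at 34.8 and 23.9 FPKM in the Mki67-low and 32.7 and 35.5 in the Mki67-high libraries, near its control values of 38.1 and 33.3.

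Cdk1, the kinase that starts mitosis, stood at 3.0 and 3.21 FPKM in control liver, 1.1 and 0.716 in the Mki67-low and 136 and 188 in the Mki67-high libraries and 3.9 and 2.62 at day 14. Its partner cyclin B1, Ccnb1, stood at 0.866 and 1.2 FPKM in control liver, was listed at 0 in both Mki67-low libraries and stood at 36.6 and 42.8 in the Mki67-high libraries. Cyclin B2, Ccnb2, stood at 1.39 and 0.951 FPKM in control liver, 0.088 and 0.050 in the Mki67-low and 54.9 and 45.6 in the Mki67-high libraries. For both cyclins the Mki67-low libraries lay under the controls. Foxm1, a transcription factor that drives mitotic genes, stood at 0.223 and 0.50 FPKM in control liver, 0.398 and 0.106 in the Mki67-low and 13.9 and 16 in the Mki67-high libraries. Top2a, the topoisomerase that untangles chromosomes, stood at 0.604 and 0.982 FPKM in control liver, 0.223 and 0.0128 in the Mki67-low and 29.3 and 58.2 in the Mki67-high libraries. Cyclin A2, Ccna2, which acts in S phase and early mitosis, stood at 1.13 and 0.941 FPKM in control liver, 0.333 and 0.519 in the Mki67-low and 23.4 and 33.9 in the Mki67-high libraries. In each of these 6 genes the Mki67-high libraries lay above every other library, and replicate 4 above replicate 3 except for Ccnb2.

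The 10 genes with the largest upward gaps included 4 more of mitosis. Cdc20, the activator of the anaphase-promoting complex, stood at 0.722 and 0.084 FPKM in the Mki67-low and 79.7 and 108 in the Mki67-high libraries. Birc5, survivin of the chromosomal passenger complex, stood at 0.28 and 0.756 FPKM in the Mki67-low and 93.9 and 122 in the Mki67-high libraries. Cdca3, which triggers entry to mitosis, stood at 0.653 and 0.559 FPKM in the Mki67-low and 129 and 103 in the Mki67-high libraries. The kinetochore gene Knstrn stood at 0.514 and 0.461 FPKM in the Mki67-low and 77.2 and 61.2 in the Mki67-high libraries. All 4 were under 1 FPKM in each Mki67-low library and passed the filter through the Mki67-high libraries alone. Akr1c6, a liver enzyme described below, and Cdkn3, a phosphatase of cyclin-dependent kinases listed at 0 in both Mki67-low libraries and at 39.2 and 39.6 FPKM in the Mki67-high ones, were also among the 10. Of the 504 genes 131 were in any of the 47 lists used. Others of the 504, chosen after their values were seen, were kinetochore and spindle genes such as Nuf2 (0.0308 and 0.131 against 17 and 17.5 FPKM), Kif2c (0.0439 and 0 against 11.1 and 13.4) and Spc24 (1.04 and 2.93 against 47.2 and 50.5).

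**Figure D3:**
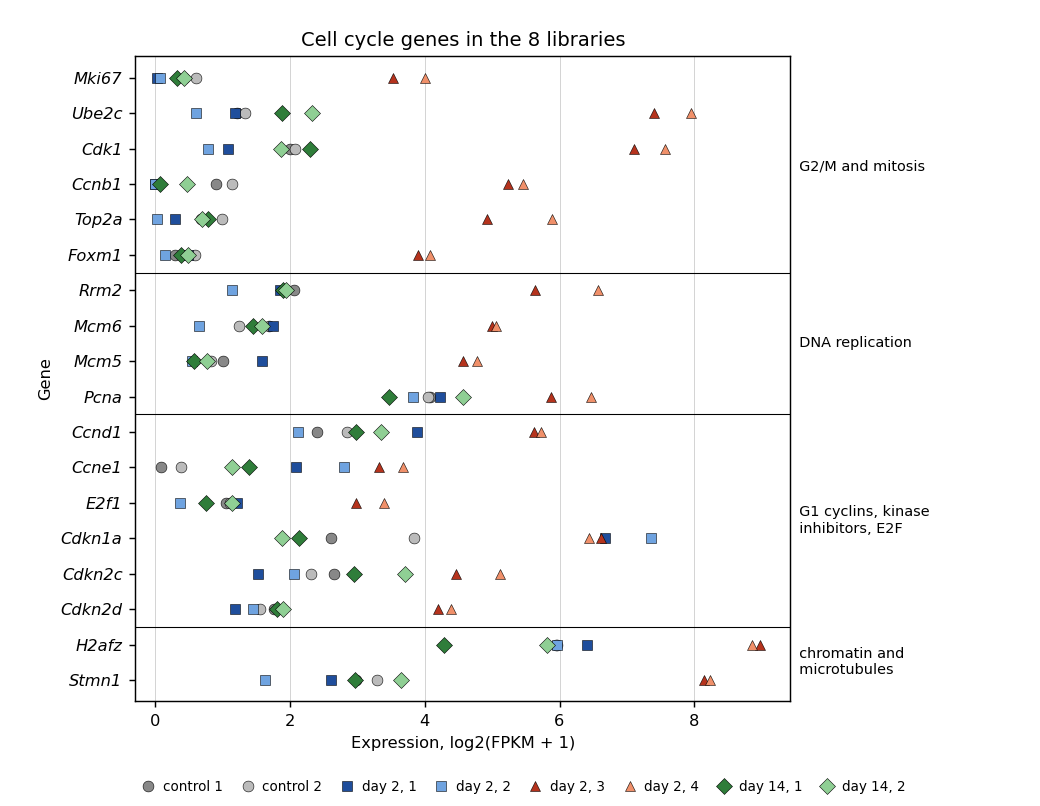
Level of 18 cell cycle genes as log2(FPKM + 1) in each of the 8 libraries, with 1 marker per library (circles control, squares Mki67-low and triangles Mki67-high day 2 libraries, diamonds day 14). For the mitotic and replication genes the triangles stand apart from all other markers, while for Cdkn1a all 4 day 2 libraries stand right of the controls.

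Genes of DNA replication and S phase followed the same division with smaller gaps. Of 38 listed genes, 28 were higher in the Mki67-high libraries and 37 did not overlap between the classes, all 37 in the same direction. Over all genes the shares were 4.43% and 27.1%. The medians of the list against control were 0.22 and -0.07 in the Mki67-low and 1.85 and 2.46 in the Mki67-high libraries. Of the 38 genes 5 were under 1 FPKM in both Mki67-low libraries, and of the 33 measured in both classes 25 were higher. Rrm2, the small subunit of ribonucleotide reductase, which makes DNA precursors, stood at 3.15 and 2.83 FPKM in control liver, 2.59 and 1.21 in the Mki67-low and 48.5 and 94 in the Mki67-high libraries. Mcm6, a subunit of the replicative helicase whose promoter is printed above, stood at 2.21 and 1.37 FPKM in control liver, 2.34 and 0.57 in the Mki67-low and 31 and 32.4 in the Mki67-high libraries. Its partner Mcm5 stood at 1.01 and 0.777 FPKM in control liver, 1.99 and 0.464 in the Mki67-low and 22.6 and 26.5 in the Mki67-high libraries. In both helicase genes replicate 1 lay above and replicate 2 below both controls. Pcna, the sliding clamp of DNA polymerase, stood at 15.8 and 15.6 FPKM in control liver, 17.6 and 13.2 in the Mki67-low and 57.3 and 87.3 in the Mki67-high libraries. None of these 4 genes was more than 1 log2 unit above control in a Mki67-low library.

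Several S phase genes departed from that pattern. Tk1, thymidine kinase, was below control in both Mki67-low libraries and above it in both Mki67-high ones, at 17.6 and 14.5 FPKM in control liver, 2.06 and 0.883 in the Mki67-low and 51.4 and 43.5 in the Mki67-high libraries, and 33.4 and 39.5 at day 14. Rfc2, a subunit of the clamp loader, was above control in all 4 day 2 libraries, at 15.1 and 15.7 FPKM in control liver, 38.8 and 38.3 in the Mki67-low and 50.2 and 67.7 in the Mki67-high libraries. Mcm10, a replication initiation factor, was lower than control in all 4, at 73.2 and 41.3 FPKM in control liver, 3.01 and 12.9 in the Mki67-low and 9.9 and 12.8 in the Mki67-high libraries. Mcm10 was the only listed S phase gene whose classes overlapped.

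The regulators that act before S phase were less uniform. Of 18 listed G1 cyclins, kinases and inhibitors 15 passed the filter and 5 were higher in the Mki67-high libraries, Ccnd1, Ccne2, Rbl1, Cdkn2c and Cdkn2d, of which Ccne2 and Rbl1 were under 1 FPKM in both Mki67-low libraries. Cdkn2c and Cdkn2d, inhibitors of the kinases that partner cyclin D, were the listed members with the largest gaps. Cdkn2c stood at 5.3 and 3.95 FPKM in control liver, 1.89 and 3.18 in the Mki67-low and 21 and 33.7 in the Mki67-high libraries. Cdkn2d stood at 2.38 and 1.92 FPKM in control liver, 1.26 and 1.74 in the Mki67-low and 17.4 and 20 in the Mki67-high libraries. Both inhibitors were thus high in the same libraries as the mitotic genes.

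Cyclin E1 was above control in all 4 day 2 libraries, and so was p21. Ccne1, the cyclin that carries cells into S phase, stood at 0.0597 and 0.301 FPKM in control liver, 3.26 and 5.97 in the Mki67-low and 8.97 and 11.7 in the Mki67-high libraries, a gap of 0.52 log2 units with the Mki67-high libraries above. Cdkn1a, the inhibitor p21, a target of p53, stood at 5.07 and 13.3 FPKM in control liver, 102 and 163 in the Mki67-low and 96.8 and 85.9 in the Mki67-high libraries, with both Mki67-high libraries slightly under both Mki67-low ones. In the comparison of all 4 day 2 libraries with control, a contrast that does not use the classes, Cdkn1a rose by 3.55 ± 0.39 (SE; limma, adjusted p = 0.00219) on the log2(FPKM + 1) scale. Of 19 listed p53 targets 17 passed the filter and 2 were higher in the Mki67-high libraries, Phlda3 at 1.02 and 1.41 against 11.5 and 17.2 FPKM and Ccng1 at 7.06 and 4.57 against 18 and 16.8. Of 16 E2F, MuvB and Myb regulators 2 were higher, E2f1, an activator of S phase genes, at 1.32 and 0.287 against 6.9 and 9.53 FPKM and E2f8, a repressor of them, at 0.0855 and 0.335 against 3.67 and 6.1. In the controls E2f8 stood at 2.45 and 1.76 FPKM, which is at least 1 log2 unit above both Mki67-low libraries. Both Mki67-high libraries lay above the controls, replicate 3 by less than 1 log2 unit. E2f8 passed the filter through the Mki67-high libraries alone, and of the 12 regulators measured in both classes 1 was higher.

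All 17 listed genes of histones and chromatin assembly lay higher in both Mki67-high than in both Mki67-low libraries, 8 of them by at least 1 log2 unit, where 27.1% and 4.43% of all genes did so. Of the 17 genes 2 passed the filter through the Mki67-high libraries alone, and of the other 15 there were 7 with that gap. H2afz, a histone variant made in all phases of the cycle, stood at 61.3 and 60.7 FPKM in control liver, 83.6 and 61.2 in the Mki67-low and 504 and 463 in the Mki67-high libraries. H2afx, a histone variant that marks DNA breaks, stood at 10.4 and 8.36 against 74.8 and 93.9 FPKM, and the histone chaperone gene Asf1b at 0.479 and 0.684 against 8.42 and 9.84. Of the cytoskeletal list 6 of 20 genes were higher and 2 lower, with 4 higher and 2 lower among the 18 measured in both classes. Stmn1, stathmin, which destabilises microtubules, stood at 6.87 and 8.75 FPKM in control liver, 5.07 and 2.09 in the Mki67-low and 282 and 301 in the Mki67-high libraries. The tubulin genes divided: Tuba1b stood at 72.2 and 18.3 against 209 and 200.0 FPKM and Tubb6 at 39.3 and 37.2 against 120.3 and 125, while Tubb2a was the reverse at 389 and 273 against 54.3 and 113. Tubulin genes share long stretches of sequence, so reads may have been divided between them. Racgap1, a protein of the cleavage furrow, stood at 0.0427 and 0.0927 against 21.2 and 22.9 FPKM.

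A second group of genes was higher in the Mki67-high libraries while the Mki67-low libraries lay under control. Among them were enzymes and carriers of mature hepatocytes. In bulk liver RNA fewer cells of a type cannot be told apart from less RNA of these genes in each cell. Of 18 measured Wnt targets and pericentral genes, which mark hepatocytes around the central vein, 7 were higher in the Mki67-high libraries and 13 did not overlap, all in that direction, against 4.43% and 27.1% of all genes. Cyp1a2, a cytochrome P450 of drug and hormone metabolism, stood at 407 and 337 FPKM in control liver, 3.89 and 5.34 in the Mki67-low and 462 and 103 in the Mki67-high libraries and 548 and 779 at day 14. Replicate 3 thus stood at the control level and replicate 4 between it and the Mki67-low libraries. Glul, glutamine synthetase of the last hepatocyte layer around the central vein, stood at 403 and 349.5 FPKM in control liver, 33 and 28.9 in the Mki67-low and 273 and 157 in the Mki67-high libraries. Rgn, a calcium-binding lactonase, stood at 665 and 579 FPKM in control liver, 23.5 and 23.1 in the Mki67-low and 538 and 224 in the Mki67-high libraries. Gulo, which completes vitamin C synthesis, stood at 203 and 176 FPKM in control liver, 14.2 and 16.3 in the Mki67-low and 169 and 123 in the Mki67-high libraries. All 3 lay far below control in the Mki67-low libraries, and replicate 3 lay above replicate 4. Lect2, a secreted hepatokine, was instead near control in the Mki67-low libraries at 86.6 and 88.9 FPKM and above it in the Mki67-high ones at 418 and 360.2, against 136 and 131 in the controls. Cyp2e1, the most abundant member, was below control in all 4 and did not separate, at 2835 and 2756 FPKM in control liver, 157 and 514 in the Mki67-low and 859.9 and 347 in the Mki67-high libraries.

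Of 22 measured cytochromes P450 and their regulators 9 were higher and none lower in the Mki67-high libraries, against 4.43% and 2.09% of all genes. Without a minimum gap 12 lay higher and 5 lower, against 27.1% and 28.1%. Of the 21 measured in both classes 8 were higher. Cyp2c29 stood at 789.5 and 1028 FPKM in control liver, 12.3 and 9.8 in the Mki67-low and 679 and 136 in the Mki67-high libraries. Cyp3a11, a main drug-oxidising enzyme, stood at 1043 and 1119 FPKM in control liver, 89.8 and 337 in the Mki67-low and 1020.3 and 722 in the Mki67-high libraries. Of 20 phase II conjugating enzymes 4 were higher, against 4.43% of all genes. Among them Ugt2b1, a glucuronosyltransferase, stood at 497 and 385 FPKM in control liver, 7.43 and 7.68 in the Mki67-low and 93.6 and 29.8 in the Mki67-high libraries. Inmt, a methyltransferase of indoles, stood at 349.7 and 282 FPKM in control liver, 2.47 and 2.68 in the Mki67-low and 151 and 11 in the Mki67-high libraries. For Ugt2b1 and Inmt every day 2 library stood under both controls, and the Mki67-high libraries stood between the controls and the Mki67-low libraries. The Cyp2c, Ugt2b and Akr1c families hold near-identical copies, so the level of each copy is uncertain.

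Of 19 measured genes of bile acid synthesis and transport, 4 were higher in the Mki67-high libraries, Akr1c6, Slco1b2, Slco1a1 and Cyp7b1, and 2 were lower, Slc51b and Abcc3. The shares over all genes were 4.43% and 2.09%. Akr1c6, a hydroxysteroid dehydrogenase, stood at 1085 and 1034 FPKM in control liver, 3.35 and 7.66 in the Mki67-low and 541 and 375 in the Mki67-high libraries and 184 and 621 at day 14, a gap of 5.44 log2 units. Slco1b2, which takes bile acids and drugs up from blood, stood at 340.5 and 343 FPKM in control liver, 6.69 and 4.96 in the Mki67-low and 59.4 and 63.5 in the Mki67-high libraries, below control in all 4 day 2 libraries. The 2 genes lower in the Mki67-high libraries export bile acids from the hepatocyte back to blood. Slc51b stood at 0.917 and 1.63 FPKM in control liver, 59.8 and 60.8 in the Mki67-low and 13.6 and 10.1 in the Mki67-high libraries. Abcc3 stood at 52.5 and 52 FPKM in control liver, 170.2 and 158 in the Mki67-low and 30.9 and 45.3 in the Mki67-high libraries. Cyp7a1, which makes the first step from cholesterol to bile acids, did not pass the filter, being listed at 0 and at 0.0173 FPKM in the Mki67-low and at 2.42 and 0.744 FPKM in the Mki67-high libraries against 10.8 and 28.7 in the controls.

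Other hepatocyte lists went both ways or in part. Of 34 amino acid catabolic genes 4 were higher, among them Afmid, Hgd and Haao of the tryptophan and tyrosine pathways, while Sdsl, Gpt2 and Mat1a were lower. Of 19 complement genes 5 were higher and 13 did not overlap, all higher, against 4.43% and 27.1% of all genes. C9, the pore-forming component, stood at 543 and 567 FPKM in control liver, 18.1 and 16.8 in the Mki67-low and 221 and 137 in the Mki67-high libraries. Mbl2, a mannose-binding lectin, stood at 238 and 241 FPKM in control liver, 20 and 42.2 in the Mki67-low and 452 and 254 in the Mki67-high libraries, so that the Mki67-high libraries lay above both controls for Mbl2 and below both for C9. Serpina6, the carrier of corticosteroids in blood, stood at 62.4 and 59.6 FPKM in control liver, 0.411 and 0.563 in the Mki67-low and 62.8 and 9.63 in the Mki67-high libraries. Replicate 3 was thus at the control level for Serpina6 and replicate 4 between it and the Mki67-low libraries. Of 13 urea cycle genes 2 were higher, Glul and the mitochondrial carbonic anhydrase gene Car5a (1.16 and 0.461 against 19.1 and 7.78 FPKM), and 1 lower, Asl (314 and 651 against 144 and 138). Cps1, the entry enzyme of the cycle, had a gap of 0.51 log2 units, with 210.4 and 113 FPKM in the Mki67-low and 413 and 301 in the Mki67-high libraries against 726 and 827 in the controls. Albumin, the main plasma protein, did not reach a gap of 1 log2 unit, at 14930.1 and 20345 FPKM in the Mki67-low and 39857 and 21816 in the Mki67-high libraries against 29161 and 32804.

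**Figure D4:**
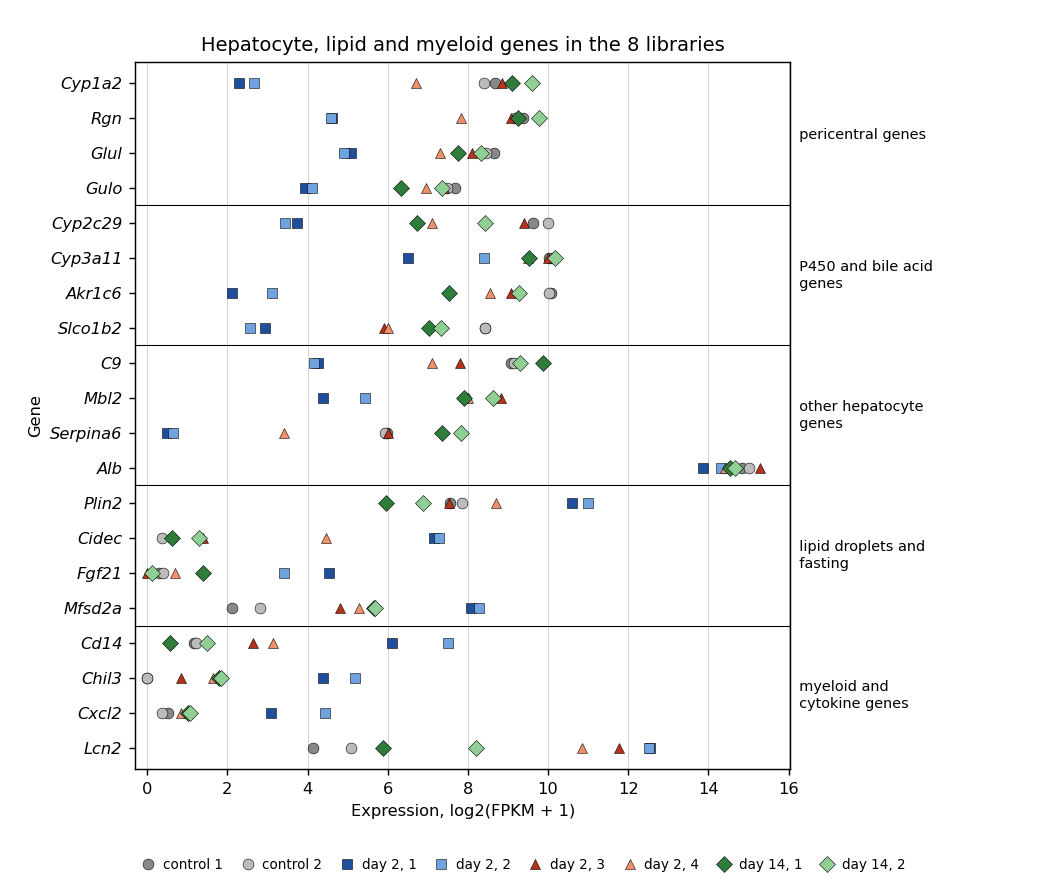
Level of 20 hepatocyte, lipid and myeloid genes as log2(FPKM + 1) in each of the 8 libraries, with the same markers as for the cell cycle genes (circles control, squares Mki67-low, triangles Mki67-high, diamonds day 14). In the 3 upper panels the squares stand left of all other markers, by the least for Alb, and in the 2 lower panels they stand right of all others, Lcn2 being above control in all 4 day 2 libraries.

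The genes lower in the Mki67-high libraries were led by other functions. Cxcl14, a chemokine made by epithelial cells, stood at 1.84 and 3.54 FPKM in control liver, 202 and 459 in the Mki67-low and 13.4 and 14.5 in the Mki67-high libraries and 6.33 and 12.9 at day 14. Mfsd2a, a lysophospholipid transporter induced by fasting in liver, stood at 3.37 and 6.0 FPKM in control liver, 270.3 and 309 in the Mki67-low and 27.2 and 38.1 in the Mki67-high libraries, and at 49.6 and 50.7 at day 14. Both were above control in all 4 day 2 libraries, and far higher in the Mki67-low ones. The short noncoding gene Snhg9, a snoRNA host annotated antisense to another gene, was at 8.61 and 30.5 FPKM in the Mki67-low libraries and listed at 0 in the other 6, and the pseudogene Rpl38-ps2 was at 6.64 and 9.03 FPKM there and listed at 0 in both Mki67-high libraries and both controls. A value of 0 for such short genes can also be a failed estimate, and without strand information reads of antisense partners cannot be told apart.

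Part of the lipid droplet list was higher in the Mki67-low libraries. Of 18 measured genes of lipid droplets and fat uptake 4 were lower in the Mki67-high libraries and none higher (2.09% and 4.43% of all genes). Without a minimum gap 8 lay lower and 2 higher without overlap (28.1% and 27.1% of all genes). In both Mki67-low libraries 9 were above control, against 0 in both Mki67-high libraries (8.97% and 8.16% of all genes). Plin2, the main coat protein of hepatocyte lipid droplets, stood at 188 and 231 FPKM in control liver, 1559 and 2057 in the Mki67-low and 184 and 417 in the Mki67-high libraries and 61.6 and 117 at day 14. Cidec, which fuses droplets, stood at 0.535 and 0.298 FPKM in control liver, 142 and 154 in the Mki67-low and 1.64 and 21 in the Mki67-high libraries. Plin4, a coat protein related to Plin2, stood at 1.25 and 0.935 FPKM in control liver, 19.8 and 36.8 in the Mki67-low and 1.54 and 3.63 in the Mki67-high libraries. The remaining separated member was Hilpda, an inhibitor of fat breakdown, at 48.7 and 217 against 3.98 and 14.7 FPKM. Replicate 4 lay above replicate 3 for all 4 of these genes.

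Signals of fasting and fat oxidation were mixed. Fgf21, a hormone that liver releases in fasting and stress, stood at 0.234 and 0.309 FPKM in control liver and 22.2 and 9.62 in the Mki67-low libraries, was listed at 0 in replicate 3 and stood at 0.607 in replicate 4. Cyp4a14, a target of PPAR-alpha that oxidises fatty acids, did not separate, at 0.378 and 0.535 FPKM in control liver, 219.6 and 729 in the Mki67-low and 35.5 and 279 in the Mki67-high libraries, replicate 4 lying between the Mki67-low libraries. Apoa4, an apolipoprotein of triglyceride-rich particles, stood at 47.5 and 168 FPKM in control liver, 4499 and 7036 in the Mki67-low and 908 and 1542 in the Mki67-high libraries. Apoa5, its neighbour in the same gene cluster, stood at 399 and 448 FPKM in control liver, 1349.9 and 1584 in the Mki67-low and 476 and 509.6 in the Mki67-high libraries. In both apolipoprotein genes every day 2 library lay over both controls. Fabp1, the liver fatty acid binding protein, went the other way, at 5611 and 4938 FPKM in control liver, 1427 and 1828 in the Mki67-low and 3755 and 7646 in the Mki67-high libraries. Of 28 fatty acid oxidation genes 1 was higher (Fabp1) and 1 lower (Fgf21), which passed the filter through the Mki67-low libraries alone. The cold-inducible RNA-binding protein genes Cirbp and Rbm3, chosen after their values were seen, were also lower. Cirbp stood at 16.7 and 14.7 FPKM in control liver, 40.2 and 68.3 in the Mki67-low and 8.95 and 9.07 in the Mki67-high libraries. Rbm3 stood at 23.2 and 21.3 FPKM in control liver, 241 and 238 in the Mki67-low and 60.1 and 49.3 in the Mki67-high libraries.

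Genes of sterol and fatty acid synthesis differed between replicates 3 and 4 more than between the classes. Scd1, the stearoyl-CoA desaturase, stood at 1042 and 867 FPKM in control liver, 23.4 and 47.9 in the Mki67-low libraries, 1092 in replicate 3 and 16.7 in replicate 4. None of 19 lipogenic genes was separated, and their medians against control were -1.14 and -1.68 in the Mki67-low and -0.24 and -1.43 in the Mki67-high libraries. Of 24 cholesterol synthesis genes and SREBP2 targets 4 were lower in the Mki67-high libraries, Hsd17b7, Msmo1, Hmgcs1 and Mvd, and without replicate 3 the number was 14. Hsd17b7 stood at 13.6 and 12.9 FPKM in control liver, 26.9 and 32 in the Mki67-low and 6.39 and 6.35 in the Mki67-high libraries. Fdps, the most abundant member, stood at 348 and 303 FPKM in the Mki67-low libraries, 223 in replicate 3 and 58.3 in replicate 4, against 169 and 146 in the controls. For the acute phase list, likewise, 1 of 24 genes was lower and 1 higher, while without replicate 3 there were 7 lower and without replicate 4 there were 5 higher.

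Some myeloid and cytokine genes were higher in the Mki67-low libraries. Cd14, the lipopolysaccharide co-receptor, which monocytes and stressed hepatocytes make, stood at 1.25 and 1.31 FPKM in control liver, 67.5 and 181 in the Mki67-low and 5.22 and 7.86 in the Mki67-high libraries. Chil3, a lectin of recruited macrophages and neutrophils, was listed at 0 in both controls and stood at 19.9 and 35.5 FPKM in the Mki67-low and 0.78 and 2.13 in the Mki67-high libraries, and at 2.46 and 2.6 at day 14. Cxcl2, a neutrophil chemokine, stood at 0.429 and 0.299 FPKM in control liver, 7.57 and 20.6 in the Mki67-low and 1.01 and 0.795 in the Mki67-high libraries. In these 3 genes the Mki67-high libraries too lay above both controls. Il1b, an inflammatory cytokine, stood at 1.86 and 1.03 FPKM in control liver, 4.37 and 6.19 in the Mki67-low and 0.388 and 0.713 in the Mki67-high libraries. Ccl2, a monocyte chemokine, stood at 0.196 and 0.296 FPKM in control liver, 23.7 and 17.8 in the Mki67-low and 1.75 and 5.2 in the Mki67-high libraries. Of 24 measured genes of the IL-6, STAT3 and NF-kB list these last 3 were lower, Il1b having passed the filter through the Mki67-low libraries alone, and Lifr, a cytokine receptor subunit, was higher. Cxcl1, the most abundant of that list, did not separate, at 63.8 and 252 FPKM in the Mki67-low and 202 and 30.4 in the Mki67-high libraries.

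Markers of blood-derived cells were separated in part. Of 16 listed neutrophil markers 9 passed the filter, 4 of them through the Mki67-low libraries alone, and all 9 lay higher there, where 28.1% of all genes did so. The 1 with a gap of at least 1 log2 unit was Il1r2, itself among those 4 (3.07 and 19.6 against 0.81 and 0.251 FPKM). The summed FPKM of the list was 482 and 720.2 in the controls, 2847 and 4777 in the Mki67-low libraries and 2458 and 2167 in the Mki67-high libraries. Most of that sum was Lrg1, which hepatocytes also make as an acute phase protein, at 2696 and 4417 FPKM in the Mki67-low and 2367 and 2132 in the Mki67-high libraries. The calprotectin subunit gene S100a8 stood at 0.769 and 1.85 FPKM in control liver, 42.4 and 102 in the Mki67-low and 27.4 and 11.7 in the Mki67-high libraries. Ly6g, Camp and Elane, defining genes of neutrophils and their precursors, were under 0.5 FPKM in all 4 day 2 libraries. Of 17 listed monocyte markers 12 passed and 3 were lower, Cd14, Chil3 and Itgam, of which Itgam passed through the Mki67-low libraries alone, with a summed FPKM of 357 and 376 in the controls, 714 and 908 in the Mki67-low libraries and 479 and 479 in the Mki67-high libraries. None of 6 measured erythroid genes was separated. The part of these cells in the differences between the classes was not tested.

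Resident cells of the liver gave smaller differences. Of 13 Kupffer cell markers 1 was higher in the Mki67-high libraries, Cd5l, at 28.7 and 23.9 FPKM in control liver, 10.7 and 9.53 in the Mki67-low and 32.2 and 35.1 in the Mki67-high libraries, and the list summed to 209 and 175 in the controls, 209 and 254 in the Mki67-low libraries and 213 and 296 in the Mki67-high libraries. Clec4f, a marker restricted to Kupffer cells, had a gap just under the limit, at 20.1 and 14.1 FPKM in the Mki67-low and 40.1 and 46.7 in the Mki67-high libraries against 44.9 and 40.3 in the controls. Of 16 sinusoidal endothelial markers 1 was higher, Clec4g (9.4 and 3.2 against 24.1 and 33.8 FPKM), with sums of 193 and 176 in the controls, 154 and 122 in the Mki67-low libraries and 136 and 202 in the Mki67-high libraries. Of 20 stellate cell and matrix genes 2 were higher, Col1a2 (2.64 and 0.904 against 6.55 and 10.9 FPKM) and Reln, and 1 lower, Thbs1, with sums of 186 and 172 in the controls, 387 and 232 in the Mki67-low libraries and 253 and 408 in the Mki67-high libraries. Lymphocyte markers were nearly absent, with 1 of 17 passing the filter and 15 under 0.5 FPKM in all 4 day 2 libraries. Hepatocyte transcription factors, the defining genes of the main cell type, were present in all libraries. Of 19 measured 0 were separated, where 4.43% and 2.09% of all genes were, and nothing is read from a count in a list of this size. Hnf4a stood at 121 and 146 FPKM in control liver, 101 and 91.7 in the Mki67-low and 155 and 72.1 in the Mki67-high libraries.

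Some early response genes and members of a TGF-beta and activin list were higher in the Mki67-low libraries. Of 18 immediate early genes 3 were lower in the Mki67-high libraries, Ier3, Fosl1 and Btg1, of which Fosl1 passed the filter through the Mki67-low libraries alone. Over all genes 2.09% were lower. Ier3, a stress-induced survival gene, stood at 0.627 and 0.922 FPKM in control liver, 48.1 and 90.4 in the Mki67-low and 8.34 and 8.8 in the Mki67-high libraries. Fosl1, an AP-1 subunit, stood at 0.0356 and 0.0698 FPKM in control liver, 4.77 and 3.12 in the Mki67-low and 0.108 and 0.644 in the Mki67-high libraries. Myc did not reach the gap, at 9.82 and 8.13 FPKM in the Mki67-low and 4.89 and 5.18 in the Mki67-high libraries against 3.02 and 1.49 in the controls. Of 17 genes of the TGF-beta and activin list 4 were lower, among them Id2, Hamp and Inhbe, against 2.09% of all genes. Id2, an inhibitor of differentiation factors, stood at 105 and 101 FPKM in control liver, 252 and 267 in the Mki67-low and 82.4 and 87.9 in the Mki67-high libraries. Hamp, the iron hormone hepcidin, stood at 1453 and 2958 FPKM in control liver, 16942 and 17412 in the Mki67-low and 7283 and 3217 in the Mki67-high libraries.

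Many lists held no separated gene. None of the genes of hypoxia and glycolysis (19 measured), NRF2 (16), metallothioneins and zinc (7), the unfolded protein response (24), ribosome biogenesis (23), nucleotide synthesis (15), oxidative phosphorylation (24), the proteasome (24) or the circadian clock (16) reached a gap of 1 log2 unit. Some of these lists still leaned: 11 of 24 proteasome genes lay lower and 1 higher in the Mki67-high libraries without overlap, where 28.1% and 27.1% of all genes did so. Psmb3, a core subunit, stood at 109 and 106 FPKM in control liver, 257 and 274 in the Mki67-low and 177 and 165 in the Mki67-high libraries. Of 20 male-biased genes 5 were higher in the Mki67-high libraries, against 4.43% of all genes. Of the same 20 genes 14 and 11 were below control in the Mki67-low and the Mki67-high libraries, against 7.42% and 4.68% of all genes. Slco1a1, one of them, stood at 161 and 164 FPKM in control liver, 1.41 and 1.16 in the Mki67-low and 9.1 and 7.92 in the Mki67-high libraries.

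**Figure D5:**
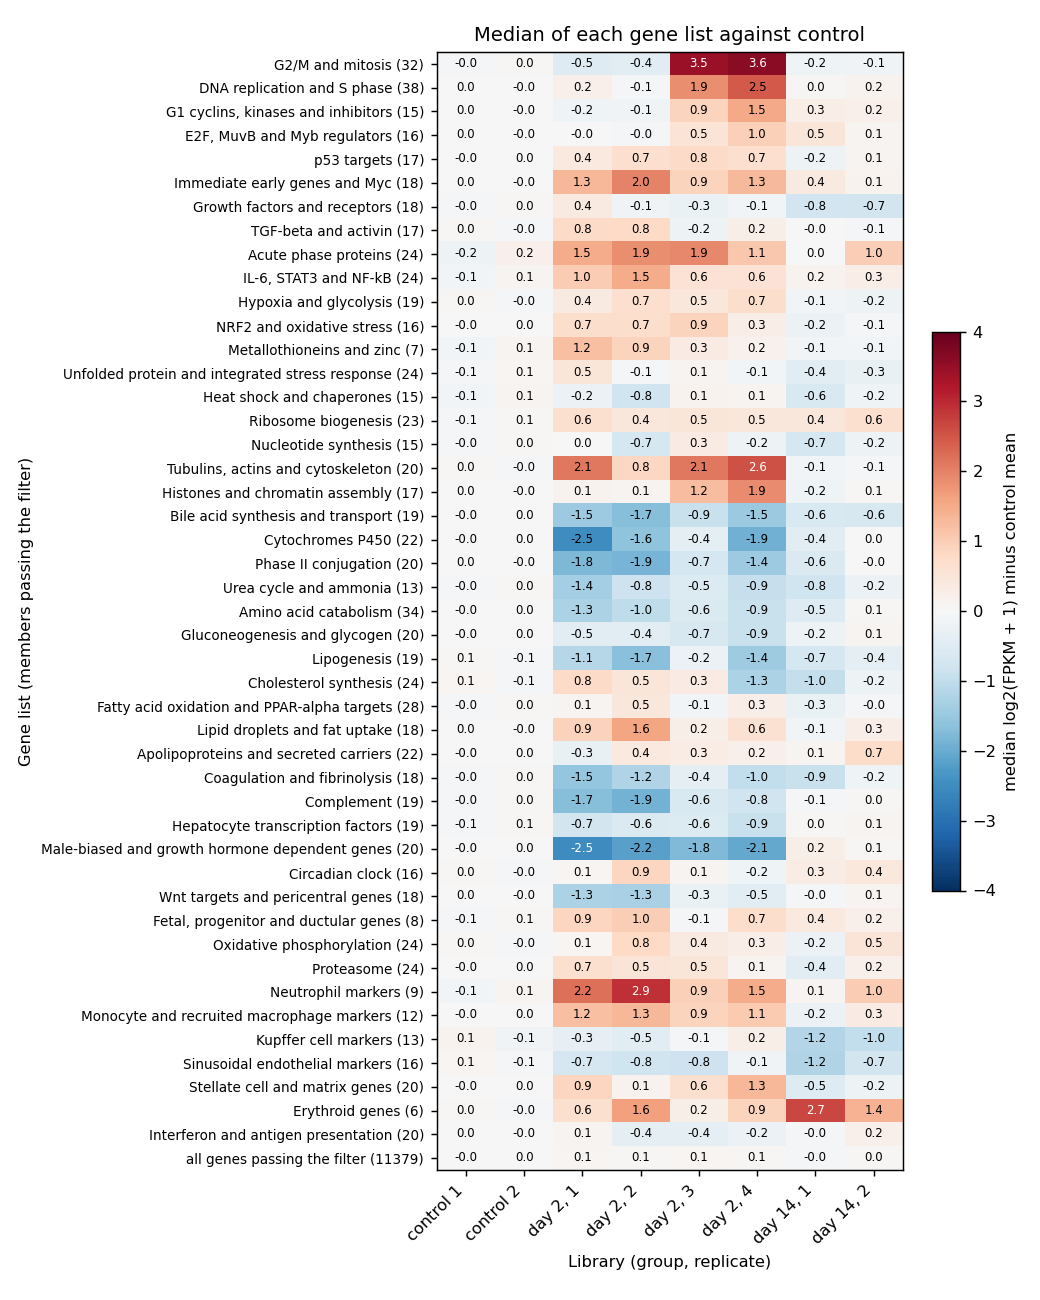
Median of log2(FPKM + 1) minus the control mean over the genes of each list that passed the filter (rows, number of genes in brackets) in each of the 8 libraries (columns); red is above and blue below control, and the last row is the median of all 11379 genes. Day 2 replicates 3 and 4 stand apart from replicates 1 and 2 in the upper rows for mitosis and replication, and replicate 4 stands apart from the other 3 for cholesterol synthesis.

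Of all 11379 genes, 372 were above control and 343 below it in both classes. The day 2 mice also had EMC or eLO treatment, so operation and treatment cannot be told apart in a comparison with control. When all 4 day 2 libraries were compared with control, 1200 of 12340 genes (9.72%) rose and 1420 (11.5%) fell (limma with a mean-variance trend, Benjamini-Hochberg adjusted p under 0.05). Without control replicate 1 these counts were 35 and 61, without control replicate 2 they were 35 and 57, without day 2 replicate 1 the number that rose was 783, and after removal of the length and GC trend it was 777. Of the 504 genes higher in the Mki67-high libraries 6 rose and 38 fell in this test, and of the 238 lower ones 29 rose and none fell (12.2%, against 10.5% of all 11379 genes). The spread within day 2 that chose these genes also enters the error of this test, so nothing is read from the counts. Without control replicate 1 or 2 at most 1 gene of either set passed. Without day 2 replicate 1 the 504 genes had 9 that rose and 18 that fell and 13 of the lower set rose, and without replicate 2 the 504 had 22 that rose. Without replicate 3, 86 of 368 genes of the higher set fell and 71 of the 238 rose. None of the 32 G2/M genes passed. Lcn2, an iron-binding acute phase protein, stood at 16.5 and 33 FPKM in control liver, 5936 and 5894 in the Mki67-low and 3466 and 1854 in the Mki67-high libraries and rose by 7.31 ± 0.71 (SE; limma, adjusted p = 0.00174) log2 units. Marco, a scavenger receptor of macrophages, stood at 2.38 and 1.82 FPKM in control liver, 35.5 and 80.4 in the Mki67-low and 33.4 and 51 in the Mki67-high libraries and rose by 3.96 ± 0.36 (SE; limma, adjusted p = 0.00162). Car3, a cytosolic carbonic anhydrase, stood at 2370.5 and 2604 FPKM in control liver, 3.12 and 2.06 in the Mki67-low and 31.6 and 6.61 in the Mki67-high libraries and changed by -8.38 ± 0.82 (SE; limma, adjusted p = 0.00174). These 3 genes and Cdkn1a passed with each control or day 2 library left out in turn. Of the 51 named genes that passed, 44 did not do so without control replicate 1, and 44 without control replicate 2.

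Day 14 libraries were not used to form the classes, so the separated genes could be tested there against control. The fit used only the 2 control and 2 day 14 libraries. Of 11293 genes 1699 (15.0%) were higher and 1540 (13.6%) lower at day 14. After removal of the length and GC trend the counts were 1204 and 1215 of 11264 genes. In the day 14 libraries short genes stood higher against control than long ones by 0.52 and 0.89 log2 units. Genes of high GC content stood higher than those of low GC content by 0.68 and 0.64 log2 units. The part of these trends in the shares below was not tested. Of the 504 genes higher in the Mki67-high libraries 332 could be tested, of which 41 (12.3%) were higher and 38 (11.4%) lower, against 15.0% and 13.3% of the genes of the filter set. Of the 238 lower genes 182 could be tested, of which 63 (34.6%) were higher and 15 (8.24%) lower at day 14. Leaving out each library gave shares of 3.10% to 21.1% higher and 3.10% to 35.6% lower in the former set, against 3.37% to 24.7% and 2.48% to 30.0% of the filter set. Of the 182 genes 12 passed the filter through the day 14 libraries alone. Among the 166 measured in both groups 55 (33.1%) were higher, against 14.1% of the filter set. The former set thus lay near the background in both directions, and the latter above it toward higher levels. The 2 comparisons with control share the control libraries. Of the 238 genes 47 had entered through the Mki67-low libraries alone, and they were not taken out of the day 14 shares. In the Mki67-low libraries 135 of the 238 were above these same controls with the Mki67-high libraries near them, and 24 were above in both classes. The part of such genes in the share higher at day 14 was not tested. Leaving out control replicate 1 or 2 gave 532 and 397 genes higher and 387 and 264 lower in all, and leaving out day 14 replicate 2 gave 2618 and 3248. In the set lower in the Mki67-high libraries the share higher at day 14 was then 16.9% without control replicate 1, 15.8% without control replicate 2, 42.0% without day 14 replicate 1 and 42.4% without day 14 replicate 2. The background shares of all genes of the filter set were 4.52%, 3.37%, 21.4% and 24.7% in that order, so the set lay above them each time.

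Mfsd2a was higher at day 14 by 3.21 ± 0.28 (SE; limma, adjusted p = 0.0121) log2 units. Orm3, an orosomucoid also lower in the Mki67-high libraries, was higher by 2.63 ± 0.62 (SE; limma, adjusted p = 0.0338). Plin2 of the same set instead changed by -1.28 (limma, adjusted p = 0.0477), and did not pass without control replicate 1 or 2. Mfsd2a and Orm3 passed with each of the 4 libraries left out in turn. Of the G2/M list 11 genes were measured and 4 were higher at day 14, Cenpa, Cks2, Pttg1 and Ube2c, against 15.0% of the filter set. Of the 11 genes 1 passed the filter through the control libraries alone. Among the 10 measured in both groups 4 were higher, against 14.1% of the filter set. Nothing is read from a count in a list of this size. Ube2c rose by 0.83 ± 0.22 (SE; limma, adjusted p = 0.0445), to 2.66 and 4.04 FPKM, but did not pass without control replicate 1 (adjusted p = 0.204 by limma), control replicate 2 (0.168) or day 14 replicate 2 (0.0533). Tk1 rose by 1.14 ± 0.22 (SE; limma, adjusted p = 0.0229), and did not pass without control replicate 1 or 2 (adjusted p = 0.103 and 0.215 by limma). Among the hepatocyte genes Slco1a1 changed by -2.29 ± 0.24 (SE; limma, adjusted p = 0.0135), to 27.7 and 38 FPKM, and passed with each library left out in turn. Cyp2c29 (-2.24), Cps1 (-1.67), Car5a (-1.40), Slco1b2 (-1.24) and Afmid (-0.85 log2 units) were also lower (limma, adjusted p from 0.0228 to 0.0396). Serpina6 was higher, by 1.64 log2 units (limma, adjusted p = 0.0169). Unlike Slco1a1, none of these passed with each library left out in turn. Cyp1a2 (548 and 779 FPKM at day 14), Rgn (612 and 868) and Glul (215 and 318) did not pass.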

How the data were processed

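RNA of 8 liver samples was extracted with Trizol and made into TruSeq libraries, per the labels' protocols. The authors deposited 1 table of FPKM for 47719 genes. Per the submitters' processing notes the tools were DESeq2, HTSeq, HISAT2 2.10 and Cufflinks 2.2.1 and the builds mm9 and GRCm38, with no role or order. What made the table, and on which annotation, is not given in the sources used here. Identifiers were matched to a table of gene names (47219 matched, 27 symbols that had become dates were restored) and to the GENCODE annotation of GRCm38 for coordinates, length and GC content.

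Libraries were grouped by their labels, and the day 2 libraries were divided by Mki67 as stated. The members, the 47 gene lists and the rule for naming genes were chosen with earlier results of these data known. FPKM was transformed to log2(FPKM + 1), and a gene was kept if 2 or more of the libraries used reached 1 FPKM. The separation of the classes has no test. Comparisons with control were fitted by limma 3.58.1 (R 4.3.3; trend between mean and variance): day 2 in a fit of all 8 libraries and 3 groups (5 residual degrees of freedom), day 14 in a fit of 4 libraries (2 residual degrees of freedom). The method was tested on simulated data. Plots used Python 3.11.15 with matplotlib 3.10.9.

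Genes were named by rule: Mki67, Ube2c and Ccnd1, the 2 members of each list with the largest gap and its most abundant member, the 10 genes with the largest gap in each direction with at least 5 FPKM in both libraries of the higher class, leaving out unnamed gene models, and a fixed set of regeneration and liver genes. Other genes were chosen after their values were seen. They are members of a list counted in the same paragraph, among them Pttg1, Pcna, Mcm5, Mcm6, Gulo, Lect2 and the tubulins, and, outside the lists or their counts, Nuf2, Kif2c, Spc24, Apoa5, Cirbp and Rbm3. Apoc2 stands in the table under 2 identifiers. Genes with near-identical copies (Saa, Mup, Cyp2c, Ugt2b, Akr1c, tubulins, globins) have uncertain levels. Alternatives were another pseudocount, filter, scaling, gap and fit, leaving out each library, and removal of the trend with length and GC content, the last chosen after the data had been seen. Some results are not reported here.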

Additional observations from a re-analysis of the deposited data

Results flagged for a closer look

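Among the 175 named genes, 2 had a day 2 library far from the other 3 by Dixon's criterion for 4 values, which chance meets in about 1 of 20 groups. Bhlhe40, a repressor of the circadian clock, stood at 146.2 FPKM in day 2 replicate 2 and at 31.3, 29.6 and 26.9 FPKM in replicates 1, 3 and 4, against 46.7 and 41.1 in the controls. Dbp, a transcription factor of the clock output, stood at 2.252 FPKM in day 2 replicate 1 and at 8.78, 8.8 and 8.4 FPKM in replicates 2, 3 and 4, against 2.96 and 1.1 in the controls. Neither gene follows the Mki67 classes, and both set the Mki67-low libraries apart from each other.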

How the results depend on the processing

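The separation of the classes gave 504 genes higher and 238 lower. With a pseudocount of 0.1 it gave 395 lower, and with a gap of 2 log2 units 166 higher and 28 lower. Leaving out each day 2 library gave 459 to 1020 higher and 305 to 756 lower, the highest both without replicate 1. The genes higher were 67.9% of those separated, 52.3% without replicate 3, 52.4% without replicate 4 and 57.4% without replicate 1. By its definition the gap of a separated gene cannot shrink when a library is left out, while the filter still asks for 2 libraries. Without replicate 3 or 4, 293 of the 504 genes stayed separated, the number that reached 1 FPKM in both classes. How far each of these moved the shares was not tested. Both scalings, the filter at 5 FPKM and removal of the length and GC trend kept both counts within 1.5 times. Dropping the filter could not change them, as a gap of 1 log2 unit needs 1 FPKM in both libraries of the higher class. No named gene with a gap of at least 1 log2 unit changed direction under any alternative, which leaving out a library could not bring about. Changes of direction were not counted for named genes with smaller gaps. Of 1675 values 1436 moved little and 239 moved more. Day 2 against control gave 1200 genes higher and 1420 lower, 777 higher with the length and GC trend removed, and 35 to 1369 higher and 57 to 1602 lower when each library was left out. Day 14 against control gave 1699 higher and 1540 lower, 643 and 565 with all 8 libraries in the fit, and 397 to 2618 higher and 264 to 3248 lower when each library was left out. Without a filter it gave 2 higher and 0 lower by limma among 20090 genes, with 2967 and 2826 at an unadjusted p under 0.05 and a smallest adjusted p of 0.0472. A lone library left in a group was assumed to vary like the other groups. No paired analysis was made because the labels state no pairing of libraries between groups. The title number shared by day 2 replicate 1 and day 14 replicate 1 is unexplained. Absolute depth is unknown, so levels near 0 carry no counting interval.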
